A study of Mus musculus with 6 samples.

Results

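Vmp1, the autophagy receptor gene Sqstm1, the lysosomal membrane genes Lamp1 and Lamp2, and 6 cathepsin genes (Ctsb, Ctsd, Ctsl, Ctsh, Ctsc and Ctsz) were examined in the pancreas of mice with and without Cftr, the anion channel of epithelia whose loss causes cystic fibrosis. They were taken as all probe sets that the platform annotation gives to these 10 genes, which was 16 of the 12488 probe sets of the array. A probe set is a group of short probes that together give 1 intensity for a transcript on each array. The genes were selected from an earlier view of the CF against control comparison, in which Vmp1 lay near the top. Their differences between the groups are therefore a description and are given with no p-value.

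The 6 arrays each held pancreatic total RNA of 1 male mouse, with 3 control mice (gastrin+/-, CFTR+/+) and 3 CF mice (gastrin+/-, CFTR-/-). Both groups thus carried the gastrin+/- genotype, and both had a 95% black6 and 5% 129Sv background. They were fed Peptamen, a peptide-based liquid diet against intestinal obstruction, from day 10, and were aged 56 to 58 days. The construction of the CFTR allele was not stated in the sources used here. By its label, control replicate 1 was an entire pancreas, a word the other labels lack. The tissue was checked through acinar enzyme genes: Cel, the bile salt-stimulated lipase, read 91304 to 124848 on the 6 arrays, near the array maxima of 92020 to 135426. In RNA of a whole gland, fewer cells of a type and less RNA per cell cannot be told apart.

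Autophagy encloses part of the cytoplasm in a membrane that matures into an autophagosome and fuses with the lysosome, where acid hydrolases digest the contents. VMP1 is a membrane protein of the endoplasmic reticulum needed for the autophagosome to form, and SQSTM1 (p62) carries ubiquitinated cargo into it. LAMP1 and LAMP2 are the main glycoproteins of the lysosomal membrane. The cathepsins are lysosomal proteases: CTSD is an aspartic endopeptidase, CTSB and CTSL are cysteine endopeptidases, and CTSC, CTSH and CTSZ are cysteine proteases that mainly trim chain ends. In the acinar cell, which stores digestive proenzymes, CTSB can activate trypsinogen and CTSL can degrade trypsinogen and trypsin. VMP1 was first described as a transcript raised in experimental pancreatitis in the rat.

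The upstream sequences of 3 of these genes are shown because Vmp1 was the member furthest above control, Lamp1 and Ctsd lay below control in every CF array, and lysosomal genes often carry the E-box CACGTG, the core of the element bound by TFEB, a regulator of lysosomal genes. They are the 250 bases before the annotated gene start from RefSeq (GRCm38.p6), written 5′ to 3′ on the gene's strand, with CACGTG in capitals. Vmp1 is shown at chr11:86683837-86684086 (minus strand), Lamp1 at chr8:13158911-13159160 (plus strand) and Ctsd at chr7:142387828-142388077 (minus strand).
Vmp1: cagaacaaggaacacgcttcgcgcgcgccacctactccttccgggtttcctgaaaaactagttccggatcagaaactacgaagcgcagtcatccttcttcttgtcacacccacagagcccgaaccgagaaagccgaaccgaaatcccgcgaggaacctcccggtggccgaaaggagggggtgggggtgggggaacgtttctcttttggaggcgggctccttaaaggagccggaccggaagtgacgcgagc
Lamp1: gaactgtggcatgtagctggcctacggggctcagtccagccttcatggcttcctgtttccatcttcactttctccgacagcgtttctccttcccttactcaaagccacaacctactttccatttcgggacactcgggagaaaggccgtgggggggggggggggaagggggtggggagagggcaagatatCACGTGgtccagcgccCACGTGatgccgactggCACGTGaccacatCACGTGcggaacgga
Ctsd: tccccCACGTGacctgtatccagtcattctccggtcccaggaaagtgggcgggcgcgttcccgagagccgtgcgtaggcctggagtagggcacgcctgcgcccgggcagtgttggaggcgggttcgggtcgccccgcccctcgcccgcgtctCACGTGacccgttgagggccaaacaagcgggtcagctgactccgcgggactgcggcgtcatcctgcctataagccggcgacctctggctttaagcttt
The motif reads the same on both strands. It was found 4 times upstream of Lamp1, with its first base at -61, -45, -28 and -15 from the start, and 2 times upstream of Ctsd, at -245 and -98. It was in none of the 3 annotated upstream windows of Vmp1, which says only that these letters are not there. Of the 8 members with a window in the table, 3 held it (Lamp1, Ctsd and, once, Ctsl), where 6.86% of all 27025 genes held it in any window. The annotated start behind the Ctsl window is in doubt, because the window ends in letters that resemble the end of an intron, and without Ctsl the count was 2 of 7. The longer form TCACGTGA, which contains CACGTG, was upstream of Ctsd alone among these 8 genes and of 0.907% of all genes. The lists of related genes given below were scanned for CACGTG too. It was upstream of 2 of 4 other cathepsins, 2 of 5 sorting genes and 4 of 15 lysosomal membrane and pump genes. Counts were 5 of 22 hydrolases and activators, 3 of 15 regulators of TFEB and mTORC1, and 2 of 23 autophagy genes. The 1 cystatin gene with a window lacked it.

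Within the annotated bounds of Vmp1, on the same strand, lies the hairpin of the microRNA gene Mir21a. Its main product miR-21a-5p is shown with its seed, bases 2 to 8, in capitals, at chr11:86584120-86584141 (minus strand, GRCm38.p6).
miR-21a-5p: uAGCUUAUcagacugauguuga
The array has no value for the mature microRNA, and the place of the Vmp1 probe set relative to the hairpin was not analysed here.

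Of the 16 probe sets, 14 passed the filter on dim values, and they covered all 10 genes. In limma fitted across all 7739 probe sets that were bright enough, 0 of the 14 had a Benjamini-Hochberg adjusted p under 0.05, where 0.0646% of all probe sets did, and 2 of the 14 had an unadjusted p under 0.05, where 7.38% of all did. The arrays can be paired by title suffix, although the labels do not say what the suffixes stand for. With the replicate number as a block the adjusted threshold was passed by 1 of the 14, Vmp1, and by 0.129% of all. The groups did not overlap in 5 of the 14, where 13.0% of all probe sets had no overlap. The CF arrays all lay above the controls in 3, where 7.37% of all probe sets did so, and all below in 2, where 5.62% did. Because the genes were selected with this contrast known, nothing about them is read from these counts. Across all probe sets the median log2 difference (CF minus control) was 0.00.

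Vmp1 (probe set 95444_at) read 1725, 1653 and 1435 in control replicates 1 to 3 and 4473, 4943 and 3242 in the CF replicates. Every CF array was above every control, and the lowest CF value was that of replicate 3, whose control was also the lowest of its group. The means were 1604 ± 151 and 4219 ± 879 (SD, n = 3 per group), a 2.60-fold higher level in CF (log2 difference 1.38 ± 0.19 SE). Leaving out each array in turn gave 1.25 to 1.56. Of the 7739 probe sets, 69 including Vmp1 were at least as far above control.

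Sqstm1 (101995_at) read 2234, 2412 and 2453 in control and 2297, 2005 and 2111 in CF. The groups overlapped, since CF replicate 1 was above control replicate 1. The means were 2366 ± 116 and 2138 ± 148, and the log2 difference was -0.15 ± 0.15. Sqstm1 transcript and its protein are different readouts of autophagy, and the protein was not measured here.

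The lysosomal membrane genes pointed in opposite directions. Lamp1 (160089_at) read 6717, 7394 and 8158 in control and 5522, 5831 and 6655 in CF. The CF arrays were all lower, by a narrow gap between CF replicate 3 and control replicate 1. Its log2 difference was -0.31 ± 0.15, a level 1.24-fold higher in control.

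Lamp2 had 2 probe sets with the same log2 difference of 0.45, with SEs of 0.20 and 0.26. On 101590_at it read 1033, 884 and 1127 in control and 1133, 1399 and 1657 in CF, so that the groups parted only narrowly, between control replicate 3 and CF replicate 1. On 100136_at it read 924, 758 and 1311 in control and 1061, 1714 and 1291 in CF. There the groups overlapped, because control replicate 3 exceeded CF replicates 1 and 3.

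**Figure D1:**
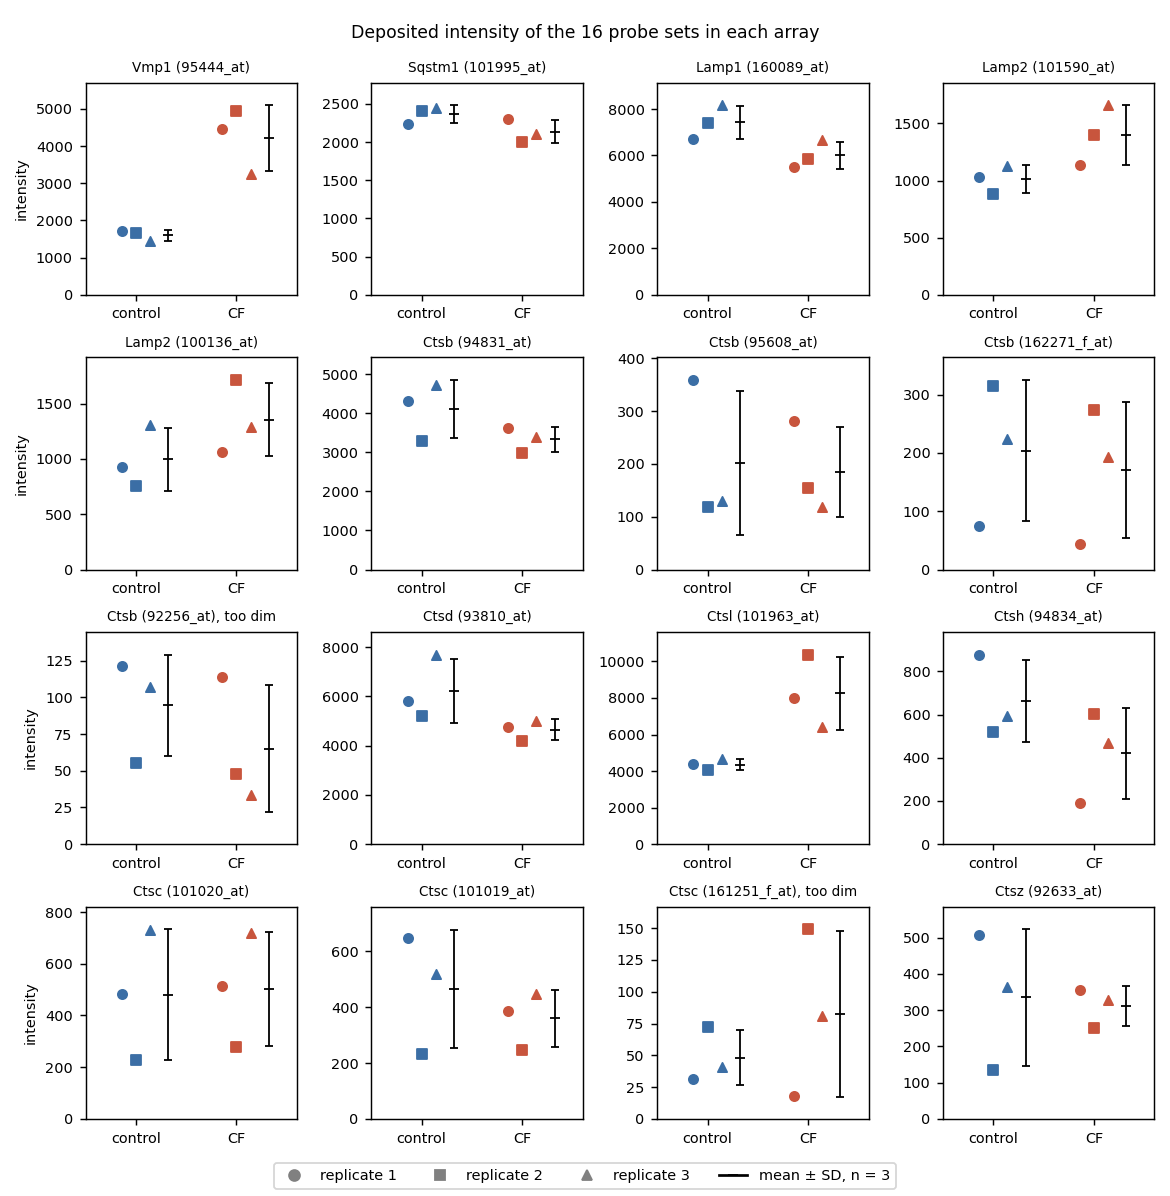
Intensity (vertical axes, from 0) of each of the 16 probe sets in the control and CF arrays, with circles, squares and triangles for replicates 1, 2 and 3 and a bar for the mean ± SD (n = 3). Vmp1 (1435 to 1725 in control, 3242 to 4943 in CF) and Ctsl part by the widest gaps, while the Ctsc, Ctsz and dim Ctsb panels show the same replicate high or low in both groups; 2 panels are marked too dim to test.

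Among the endopeptidases, Ctsl was higher and Ctsd lower in CF. Ctsl (101963_at) read 4365, 4065 and 4634 in control and 8006, 10367 and 6412 in CF. The control values lay close together and every CF value was above them, with CF replicate 2 the highest, as for Vmp1. The means were 4355 ± 285 and 8262 ± 1990, a 1.86-fold higher level (log2 difference 0.90 ± 0.19; 0.72 to 1.07 when each array was left out in turn).

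Ctsd (93810_at) read 5790, 5185 and 7688 in control and 4759, 4188 and 5000 in CF. The CF arrays were all lower, but CF replicate 3 and control replicate 2 were close. Its log2 difference was -0.40 ± 0.18, and -0.24 without control replicate 3, the highest array.

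Ctsb had 4 probe sets that did not show 1 pattern. The brightest (94831_at) read 4310, 3281 and 4731 in control and 3613, 2993 and 3390 in CF, and the groups overlapped (log2 difference -0.29 ± 0.18; -0.18 without control replicate 3). On 95608_at the values were 359, 118 and 129 in control and 281, 154 and 119 in CF, with replicate 1 highest in both groups (-0.03 ± 0.55). On 162271_f_at they were 74.1, 314 and 224 in control and 44.1, 274 and 193 in CF, with replicate 1 lowest in both (-0.35 ± 0.77). The fourth, 92256_at, was too dim to test at 33.2 to 121 on the 6 arrays. The ending _f_at marks a probe set whose probes may match several related sequences.

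Of the chain-end proteases, Ctsh (94834_at) read 877, 518 and 592 in control and 190, 602 and 468 in CF. CF replicates 1 and 3 stood below all controls, replicate 1 by far the lower, while CF replicate 2 lay above control replicates 2 and 3. The log2 difference of -0.77 ± 0.42 was -0.28 without CF replicate 1. Ctsc and Ctsz showed little difference between the group means. Ctsc had 482, 228 and 732 in control and 514, 277 and 718 in CF on 101020_at (0.11 ± 0.48), and 647, 234 and 520 against 386, 248 and 448 on 101019_at (-0.29 ± 0.41). Both Ctsc probe sets were lowest in replicate 2 of each group. The third, 161251_f_at, was too dim to test (18.1 to 149). Ctsz (92633_at) read 508, 135 and 363 in control and 355, 250 and 329 in CF, again lowest in replicate 2 of both groups (0.08 ± 0.47). For Ctsz and the brighter of the 2 tested Ctsc probe sets the sign depended on the arrays kept: the differences were -0.48 and -0.35 without control replicate 2, and as high as 0.47 (without control replicate 1) and 0.49 (without control replicate 3).

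**Figure D2:**
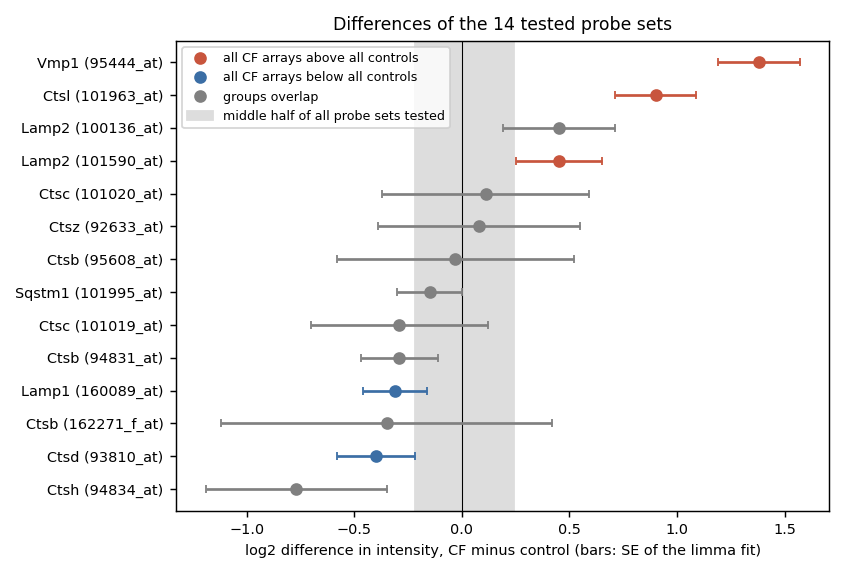
Log2 difference in intensity, CF minus control (horizontal axis), of the 14 tested probe sets, with bars for the SE of the limma fit and a grey band for the quartile range of all tested probe sets, from -0.22 to 0.24. Vmp1 at 1.38 and Ctsl at 0.90 are furthest to the right, Lamp1 and Ctsd lie left of 0 with no overlap between the groups, and Ctsh at -0.77 has a wide bar.

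Some of these probe sets differed mainly between genotypes and others mainly between title suffixes (none, B and P for replicates 1, 2 and 3). The genotype accounted for 92.2% of the variation of the 6 log2 values of Vmp1, 82.4% for Ctsl and 64.5% for Lamp1. The suffix accounted for 98.2% and 82.3% for the Ctsc probe sets 101020_at and 101019_at, 74.8% for Ctsz, and 94.1% and 96.0% for the Ctsb probe sets 95608_at and 162271_f_at. Large suffix shares were common on these arrays, with a median of 47.3% over all tested probe sets and 36.5% over the members. The median genotype share was 14.4% over all and 37.6% over the members, which were selected with this contrast known. The suffix splits the arrays into 3 groups and the genotype into 2, so with no effect of either the suffix share would be the larger. The suffix term, which the selection of the genes did not use, was tested in the fit with the block. In limma, 0 of the 14 probe sets passed at an adjusted p under 0.05, as did 0 of all 7739 probe sets, with the lowest member at an adjusted p of 0.30 (Ctsc 101020_at). At an unadjusted p under 0.05 it was 4 of the 14, against 13.3% of all. These 4 came from Ctsc (101020_at and 101019_at) and Ctsb (95608_at and 162271_f_at) alone, and the brightest Ctsb probe set was not among them. The labels do not say what the suffixes stand for.

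**Figure D3:**
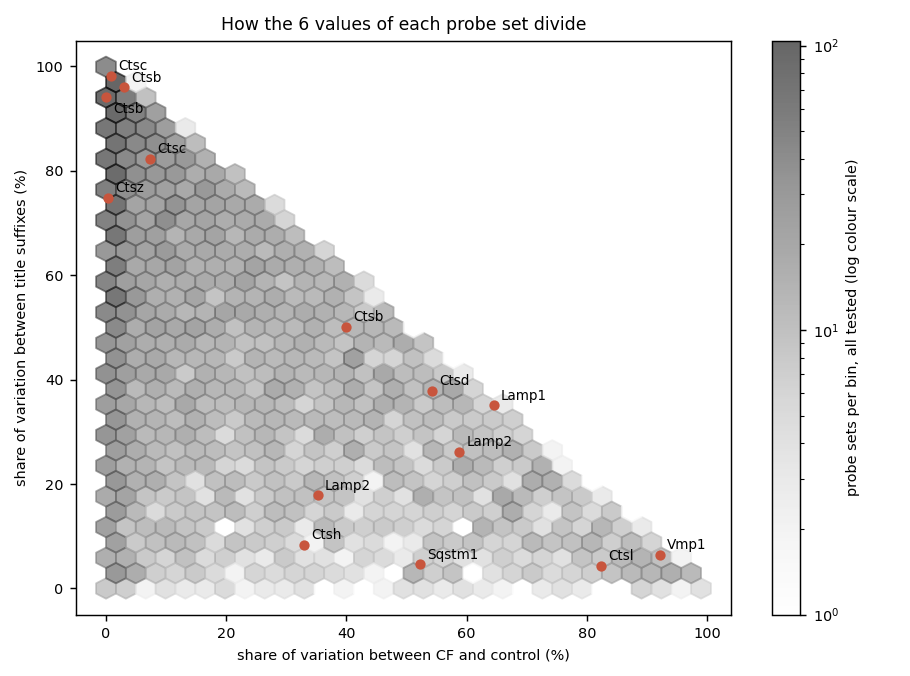
Share of the variation of each probe set's 6 log2 values that lies between CF and control (horizontal axis, %) and between title suffixes (vertical axis, %), with members in red and all 7739 tested probe sets as grey bins. Vmp1 (92.2% genotype) and Ctsl (82.4%) lie at the right, and Ctsc, Ctsz and 2 Ctsb probe sets lie at the upper left, where many other probe sets also lie.

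Macrophages are rich in cathepsins, and their markers were set beside these values. Of 22 macrophage markers all were on the array and 15 were bright enough to test. Of these 15, 4 were higher and 11 lower in CF (median log2 difference -0.71). Every CF array lay above every control in 1, against 7.37% of all probe sets, and below in 3, against 5.62%. In limma 0 passed, and 4 had an unadjusted p under 0.05, against 7.38% of all probe sets. The summed intensity of the 22 markers was 19336, 13175 and 15112 in control replicates 1 to 3 and 14694, 13783 and 12566 in CF. Of the defining markers, Cd68 read 1008, 514 and 750 in control and 432, 390 and 384 in CF, which did not overlap. Csf1r, the receptor for macrophage colony-stimulating factor, ran from 365 to 798 in control and 389 to 456 in CF, and the complement gene C1qa from 394 to 2273 and 329 to 576. Adgre1 (F4/80) was too dim to test at 42.4 to 101. None of these markers was at 0. C1qa, C1qc, Fcer1g, Lyz2 and Mrc1, 5 of the 15, were lowest in replicate 2 of both groups, as were 5 of the 14 member probe sets (both of Ctsc, Ctsz, Ctsd and the brightest of Ctsb) and 16.6% of all tested. This count was added after the values were seen, and nothing is read from it. The 8 acinar markers on the array summed highest in control replicate 2, at 781026 against 544209 to 634602 on the other arrays.

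Markers of the other cell types of the gland were summed in the same way. The 8 duct markers on the array summed to 7025, 6891 and 8252 in control and 10994, 9317 and 11029 in CF, so that CF was higher within each of the 3 suffix pairs and the groups did not overlap, as for Vmp1 and Ctsl. Of the 7 duct markers tested, 7 were higher in CF (median log2 difference 0.62), 5 of them without overlap. In limma 0 passed, and 4 had an unadjusted p under 0.05. These differences were uneven. Among the defining markers, Krt19 differed by 0.04 (370 ± 122 in control and 373 ± 96.7 in CF). Epcam differed by 0.66 ± 0.29 and Cldn4 by 1.58 ± 0.54, both without overlap. Krt8 differed by 0.04 as well, and Elf3, without overlap, by 0.92 ± 0.16. Krt18 (3462 ± 205 in control and 5344 ± 805 in CF) gave most of the higher sum. Lymphocyte markers summed to 10711, 5271 and 7287 in control and 6450, 2924 and 3305 in CF, and were lower in CF within each of the 3 suffix pairs although the groups overlapped. Of the 7 tested, 0 were higher and 7 lower in CF (median log2 difference -0.78), 2 of them without overlap. Fibroblast and stellate cell markers summed to 23552, 14789 and 20257 in control and 16831, 12162 and 15100 in CF, also lower within each pair, with 1 of the tested genes higher and 9 lower (median -0.54), 3 without overlap. Adipocyte markers summed to 18782, 1899 and 7884 in control and 4189, 1907 and 2187 in CF, which was lower within pairs 1 and 3 and nearly equal in pair 2, with 1 gene higher and 7 lower (median -1.11), 1 without overlap. In limma 0 genes of these 3 lists passed, and 1 lymphocyte, 3 fibroblast and 3 adipocyte genes had an unadjusted p under 0.05. Over all probe sets tested, 7.38% had such an unadjusted p in limma. Every CF array lay above every control in 7.37% of them, and below in 5.62%. Of the acinar markers 1 was higher and 7 lower (median -0.16), and of the islet markers 3 were higher and 2 lower (median 0.05), with islet sums of 18506 to 76507 in control and 21462 to 58758 in CF. The part of RNA from any of these cell types in the member values was not tested.

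**Figure D4:**
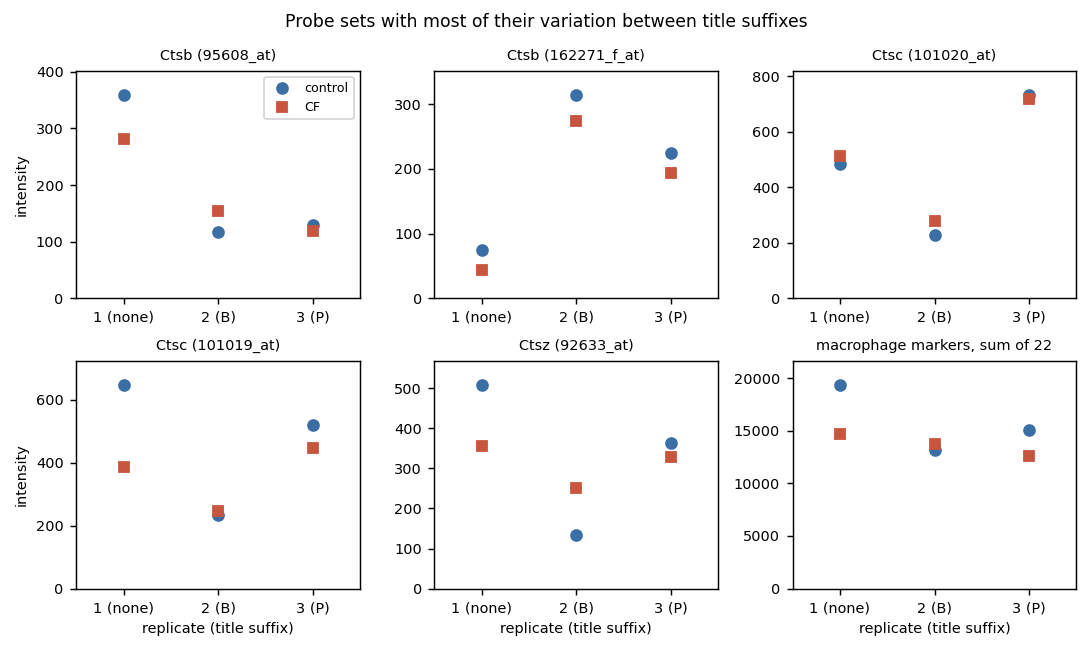
Intensity (vertical axes, from 0) by replicate and title suffix (horizontal axes) for the 5 member probe sets with the largest suffix shares and for the sum of 22 macrophage markers, with control arrays as circles and CF arrays as squares. For Ctsc 101020_at the control and CF values nearly coincide within each suffix (228 and 277 in replicate 2). The macrophage sum of 13175 to 19336 in control and 12566 to 14694 in CF varies less, but C1qb (5129 to 7412) gives the largest part of it. Single markers differ in this: C1qa reads 394 to 2273 in control and 329 to 576 in CF. Cd14, the only tested marker with every CF array above control, reads 906 to 1252 and 1318 to 1665. Cd68, Laptm5 and Spi1 lie below control in every CF array (Spi1 at 324 to 417 and 108 to 188).

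The other genes of autophagy were counted from lists that leave out the members. Of 46 genes of the autophagy machinery, 28 could be tested: 19 were higher and 9 lower in CF, with a median log2 difference of 0.15 against 0.00 for all probe sets. None passed in limma at an adjusted p under 0.05 (smallest adjusted p = 0.51). In the same fit 4 had an unadjusted p under 0.05, against 7.38% of all probe sets. In 7 of the 28, each read by its brightest probe set, every CF array was above every control. Of all tested probe sets, which include dimmer ones of the same genes, 7.37% were so. In 1 every CF array was below, against 5.62% of all. These 7 were Map1lc3b, Wipi2, Wdr45, Bnip3, Becn1, Ambra1 and Atg2a, of which the last 3 fell outside the rule for naming genes and were chosen after their values were seen. The count was 8 or 9 when any array was left out, and the share of all probe sets was then 11.1 to 13.7%.

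Map1lc3b, which encodes the LC3 protein that coats autophagosome membranes, had 4942 ± 321 in control and 6638 ± 408 in CF (SD, n = 3; log2 difference 0.43 ± 0.14 SE). Wipi2, which binds the phosphoinositide of forming autophagosomes, had 642 ± 42.8 and 890 ± 57.5 (0.47 ± 0.18). Wdr45, of the same protein family, differed by 0.60 ± 0.23, and Bnip3, a mitochondrial protein that binds LC3, by 0.68 ± 0.27. Limma's adjusted p-values of these 4 genes were 0.51 to 0.66. Becn1, a subunit of the lipid kinase complex that starts autophagosomes, differed by 0.20 ± 0.16. Rab7, the GTPase of late endosomes and lysosomes, was the gene with all CF arrays below control (-0.40 ± 0.20). The list median was 0.02 without CF replicate 3 and 0.26 without control replicate 3, and 0.09 over all 34 tested probe sets of the list in place of 1 per gene. The duct marker sum, given above, was also higher in CF, and the part of duct cells in these values was not tested.

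The lysosome lists did not follow Ctsl. Of 24 tested hydrolases and activators, 8 were higher and 16 lower in CF (median log2 difference -0.13). In limma 0 passed, and 2 had an unadjusted p under 0.05, against 7.38% of all probe sets. Lgmn, the protease legumain that processes cathepsins, had 200 ± 185 in control and 473 ± 78.5 in CF (1.70 ± 0.64). Acp5, an acid phosphatase of macrophages and osteoclasts, had 316 ± 271 and 84.4 ± 53.2 (-1.66 ± 0.75), and both genes overlapped between the groups. Glb1, the lysosomal beta-galactosidase, had 943 ± 139 and 657 ± 103 (-0.52 ± 0.21), and the acid ceramidase gene Asah1 had 1012 ± 73.4 and 781 ± 31.9 (-0.37 ± 0.17), both without overlap. Limma's adjusted p-values of these 4 genes were 0.62 to 0.69. Glb1 and Asah1 were the only 2 of the 24 without overlap, both below control, where 5.62% of all probe sets lay so.

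Of 22 genes of the lysosomal membrane and proton pump, 10 were higher and 12 lower (median -0.04), and 0 passed in limma, also at an unadjusted p under 0.05. Those of smallest p were the proton pump subunits Atp6v1d (0.52 ± 0.33) and Atp6v1e1 (-0.25 ± 0.19), the chloride-proton exchanger gene Clcn7 (-0.39 ± 0.29) and Scarb2, the receptor that carries beta-glucocerebrosidase to lysosomes (0.26 ± 0.18). Of 6 genes that sort lysosomal enzymes 0 were higher (median -0.17). Gga2, an adaptor of mannose 6-phosphate receptors, was below control in every CF array (1361 ± 89.2 against 1099 ± 108, log2 difference -0.31 ± 0.17). It was the only 1 of the 6 without overlap, where 5.62% of all probe sets lay below. The receptor gene Igf2r differed by -0.28 ± 0.24, Vps29 of the retromer by -0.27 ± 0.29, and Gga1 by -0.05 ± 0.21. None of these 6 had an adjusted or unadjusted p under 0.05 in limma.

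Of 5 other cathepsins tested, 2 were higher and 3 lower (median -0.09), and 0 passed in limma at an adjusted or an unadjusted p under 0.05. Ctss, which is abundant in antigen-presenting cells, had 888 ± 687 in control and 417 ± 88.8 in CF (-0.83 ± 0.48). Ctsk, known from osteoclasts, differed by 0.27 ± 0.33, and Ctsa and Ctsf by -0.09 ± 0.25 and -0.09 ± 0.27. The cathepsin inhibitors Cst3 and Cstb, the 2 cystatin genes bright enough to test, differed by -0.18 ± 0.17 and -0.11 ± 0.16, and 0 passed in limma, also at an unadjusted p under 0.05. Of 17 regulators around TFEB and mTORC1, the kinase complex that restrains autophagy, 10 were higher and 7 lower (median 0.02), with 0 past the threshold in limma and 0 at an unadjusted p under 0.05. The AMP-activated kinase subunit Prkab1 (0.55 ± 0.24) was above control in every CF array, and Zkscan3, a repressor of autophagy genes, was below it (-0.55 ± 0.25). That made 1 of the 17 above and 1 below, near the 7.37% and 5.62% of all probe sets, and nothing is read from these 2 genes. Lamtor3, part of the lysosomal anchor of mTORC1, and Flcn (folliculin) differed by 0.53 ± 0.34 and -0.43 ± 0.32.

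**Figure D5:**
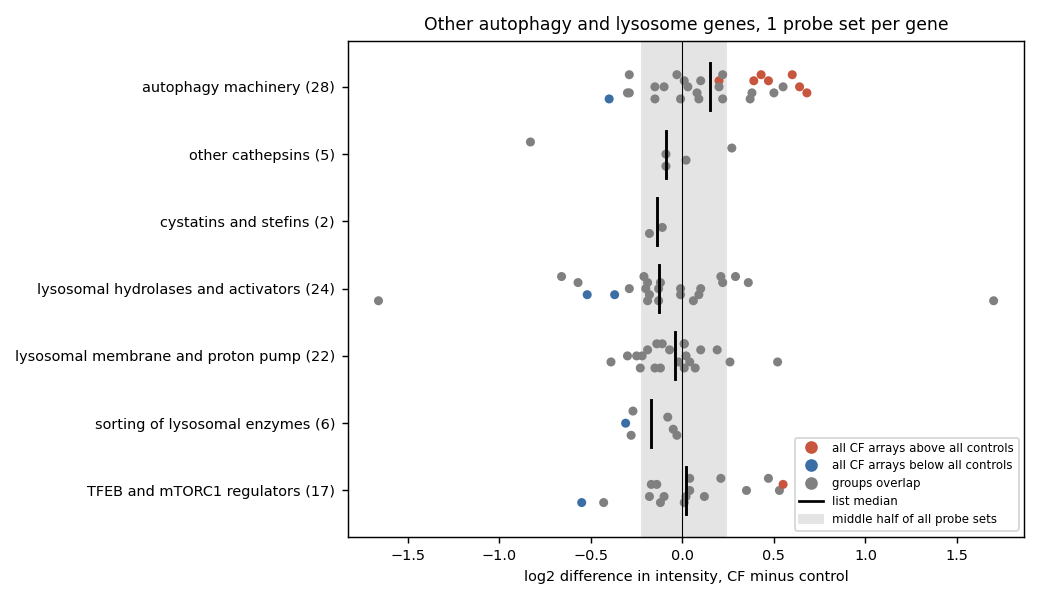
Log2 difference in intensity, CF minus control (horizontal axis), of the tested genes of 7 lists without the members, 1 probe set per gene (the brightest), with a black line for each list median, red for genes with every CF array above every control, blue for the reverse and a grey band for the quartile range of all probe sets. Red points lie mostly in the autophagy row (7 of 28), whose median is 0.15.

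The genes whose 6 values ran most like those of Vmp1 were found by the root mean square difference between log2 profiles, each centred on its mean. The closest was Mnat1, a subunit of the kinase that activates cyclin-dependent kinases, at a root mean square difference of 0.16, with 660, 733 and 496 in control and 1375, 1845 and 1273 in CF. Trabd was next at 0.18, and Htt, the huntingtin gene, at 0.19, with 6868, 8187 and 5441 in control and 16084, 18589 and 10486 in CF. Serpina1c, an alpha-1-antitrypsin gene whose probe set may read its close relatives, and Ptpn2, a tyrosine phosphatase, both stood at 0.20. In Mnat1, Trabd, Htt and Ptpn2, CF replicate 2 was the highest array and CF replicate 3 the lowest of its group, as in Vmp1. These genes were picked for likeness to Vmp1 over the same 6 values, so a shared order is no separate result. Ctsl stood at 0.28 from Vmp1, and also had its highest value in CF replicate 2 and its lowest CF value in CF replicate 3.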

How the data were processed

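Pancreatic total RNA (TRIzol, per the labels) of 6 mice was measured on 6 one-colour arrays, 1 mouse each, so their number limits the precision. The deposited intensities are linear, 1 per probe set and array; no software or step of the authors was given in the sources used here. On every array the mean without the outer 2% at each end was 500.3, so the scaling was kept. Groups came from the genotype in the descriptions. Of 12488 probe sets, 10855 had 1 gene symbol, 396 several and 1237 none. Of the 10855, 10839 were matched by gene identifier to RefSeq (GRCm38.p6) and took its symbol, whether or not it differed.

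A floor was set at the pooled 20th percentile (47.6) before taking log2. Apart from 66 control probe sets, those with at least 3 of 6 arrays above the pooled 40th percentile (140.2) were tested (7739) in limma 3.58.1 (R 4.3.3; lmFit, eBayes with intensity trend), with Benjamini-Hochberg adjustment over all of them at 0.05, after a run on simulated data. Folds are on the floored log2 scale. Arrays of the same title suffix deviated together from their group means (r = 0.23, 0.26 and 0.26 across probe sets, against -0.18 to -0.05 for other pairs). The main fit had no block, so its SEs and p-values leave this pairing out. With the suffix as a block, an alternative fit, the SE was 0.10 in place of 0.15 for Lamp1 and 0.46 in place of 0.42 for Ctsh. The test of the suffix term was added after the values were seen.

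The members and lists were chosen with earlier results of these data known. The genes named are the members, up to 4 of smallest p per list, the 5 most like Vmp1 and the defining macrophage markers; any other gene was chosen after its values were seen. A list gene is given by its brightest probe set, whereas the shares over all probe sets count every tested probe set. Marker sums add 1 probe set per gene.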

Additional observations from a re-analysis of the deposited data

How the results depend on the processing

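The number of probe sets past the threshold over all genes, 5 in limma, was 8 with each array scaled to its median, 10 with the floor at the 40th percentile, 0 with no filter (773 of 12422 at an unadjusted p under 0.05), 3 with no intensity trend, 12 with array weights, 10 with the replicate block and 17 at a threshold of 0.1. It ran from 1 to 10 when each array was left out in turn: 1 without CF replicate 1 or 2, 8 without CF replicate 3 and 10 without control replicate 2. Of the member probe sets, 1, always Vmp1, passed with median scaling, the raised floor, array weights, the replicate block, the threshold of 0.1 and without CF replicate 3, and 0 did otherwise. Vmp1 was selected with this contrast known, so these passes are no test of it and nothing is read from them. The pathway lists had 0 calls under every alternative run, the replicate block included. The log2 differences of Vmp1, Ctsl, Ctsd, Lamp1, Sqstm1, Ctsh, both Lamp2 probe sets and the brightest Ctsb probe set kept their sign in all 16 alternatives. The median of the regulators of TFEB and mTORC1 changed sign in 2 of 17, reaching -0.07 without CF replicate 1, and that of the other cathepsins in 1 of 17 (0.15, also without CF replicate 1); the median of the sorting genes was -0.37 without control replicate 2. The other 5 tested member probe sets (both of Ctsc, Ctsz and the dimmer 2 of Ctsb) did not keep their sign in all alternatives. Member probe sets without overlap numbered 3 or 4 above control and 2 to 5 below when each array was left out, an alternative chosen after seeing the data. The shares of all probe sets were then 11.1 to 13.7% above and 8.66 to 12.7% below. The 5 were without control replicate 2, where 11.7% of all probe sets lay below. The cause of these shifts was not tested. Dim probe sets limit Ctsb and Ctsc, where 2 probe sets could not be tested.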
